A study of Mus musculus with 12 samples.

Results

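The genes described here are 10 that code for sensors of bacterial products and their closest helpers: the Toll-like receptor genes *Tlr1*, *Tlr2*, *Tlr4*, *Tlr6*, *Tlr7* and *Tlr9*, the Nod receptor genes *Nod1* and *Nod2*, the adaptor gene *Myd88* and the co-receptor gene *Cd14*. They were chosen by name, and all 10 were found among the 45777 genes of the expression table and among the 23585 that passed the filter on low counts. RNA was sequenced from splenic CD4+ T cells of wild type Balb/c mice aged 7 weeks that were cultured for 3 days with an anti-CD3 antibody at 0.5 ug/mL, which activates T cells through their antigen receptor. The 4 groups all received anti-CD3 and differed in what was added: nothing further (anti-CD3 alone), *Lactobacillus acidophilus* (*L. acidophilus*), FK506, or both together (the combination). FK506, or tacrolimus, is a calcineurin inhibitor that keeps NFAT transcription factors out of the nucleus, and *L. acidophilus* is a Gram-positive probiotic bacterium. There were 3 libraries per group, with the replicate numbers 1, 2 and 3 in the labels. The labels do not say that the libraries of a group came from separate animals or cultures, so p-values measure the spread between these samples, which may be technical. The study's methods describe, for another assay, purification of such cells on magnetic beads coated with CD4 antibody, and name the B6 strain for this experiment, whereas the labels name Balb/c. Heat inactivation of the bacteria and the doses of both agents are stated for the study's cultures of whole splenocytes. Doses are also given for CD4+ T cells in another assay. Neither is restated for the cultures sequenced here.

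Toll-like receptors and Nod receptors recognise molecules that are common to microbes. Tlr1 and Tlr6 each pair with Tlr2 at the cell surface to bind bacterial lipoproteins, Tlr4 binds lipopolysaccharide with the help of CD14, and Tlr7 and Tlr9 bind RNA and unmethylated CpG DNA inside endosomes. Nod1 and Nod2 bind fragments of peptidoglycan in the cytoplasm, and MyD88 carries the signal of the Toll-like receptors to NF-kB, with the exception of Tlr3. Macrophages, monocytes, dendritic cells and B cells are the cells in which these receptors are best known, and T cells carry some of them.

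Levels are given as FPKM, fragments per kilobase of transcript length scaled to sequencing depth, as the authors deposited them, so levels of different genes can be compared per length. Differences are log2 fold changes with their standard error (SE) from edgeR's quasi-likelihood test on the counts of all 12 libraries, and a gene was called when its Benjamini-Hochberg adjusted p over all 23585 genes was under 0.05. The libraries held 45416397 to 64658165 counts, and the 4 replicate-1 libraries were the deepest, with at least 63113961 each. Where a gene had no counts, 3 counts per library served as its limit of detection, which allows for counting error alone. The 10 markers of CD4 T cells summed to 1670 to 2680 FPKM per library, and *Cd4* and *Cd3e* were at 131 to 256 and 136 to 306 FPKM. Against anti-CD3 alone, 0 of the 10 rose and 4 fell with FK506 (*Lck*, *Cd5*, *Cd2* and *Zap70*), where 10.2% of all tested genes rose and 8.81% fell. With the combination, 3 rose (*Cd3e*, *Cd4* and *Cd28*) and 2 fell (*Cd2* and *Lat*), against 21.5% and 21.8% of all genes. Markers of other cells were also measured in every group. The summed FPKM of 14 B-cell markers, none of them at 0 in all 3 libraries of a group, was 43.5 to 72.8 with anti-CD3 alone and 29.3 to 41.7 with *L. acidophilus*, against 259 to 520 with FK506 and 175 to 198 with the combination. The sum of 12 macrophage and monocyte markers was 7.19 to 15 with anti-CD3 alone, where *Csf1r*, *Fcgr1*, *Marco*, *C1qa* and *C1qb* were at 0 in all 3 libraries, and 5.55 to 12 with *L. acidophilus*. It was 7.25 to 20.6 with FK506 and 49.8 to 81.6 with the combination. The sum of 6 CD8 and NK cell markers was 3.06 to 7.67 without FK506 and 7.64 to 20.1 with it, of which 4 rose with FK506 and 0 fell. Of 8 dendritic cell markers 7 were tested, 2 rose and 2 fell with FK506, and *Clec9a* and *Siglech* were at 0 in both groups without FK506. The 7 neutrophil markers summed to at most 0.811 FPKM in any library, with *S100a8* and *Elane* at 0 throughout.

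Most of the 10 genes rose with FK506 and with the combination, and edgeR on all 12 libraries called none with *L. acidophilus* alone. With FK506 against anti-CD3 alone, 7 of the 10 rose and 0 fell, where 10.2% of all tested genes rose and 8.81% fell. The median log2 fold change of the 10 genes was 1.86, and that of all genes was -0.002. With the combination against anti-CD3 alone, 8 of 10 rose and 0 fell, against 21.5% and 21.8% of all genes, and the medians were 2.29 and 0.023. With the combination against *L. acidophilus*, 9 of 10 rose and 0 fell, against 16.6% and 17.0%, with medians of 2.4 and 0.001. Without *L. acidophilus* replicate 1 some of the latter log2 fold changes grew, from 2.71 to 3.47 for *Tlr1*, from 2.91 to 3.57 for *Tlr4*, from 3.78 to 4.52 for *Tlr9* and from 3.84 to 4.51 for *Nod1*. These comparisons share libraries and are therefore not independent of each other.

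The effect of adding *L. acidophilus* was compared without and with FK506, and the difference between both effects passed the test for 1 of the 10 genes. Against anti-CD3 alone, edgeR called 0 of 10 genes at an adjusted p under 0.05, where 0.178% of all genes rose and 0.0509% fell. At an unadjusted p under 0.05 there were 2, *Tlr7* and *Nod2*, both lower with *L. acidophilus*, and DESeq2 called 1, *Nod2*. Against FK506, the combination had 5 of the 10 genes higher (*Tlr2*, *Tlr4*, *Nod1*, *Nod2*, *Cd14*) and 1 lower (*Tlr7*), where 8.18% of all genes rose and 10.9% fell, with medians of 0.54 for the 10 genes and 0.03 for all genes. The difference between these effects, which measures how far the combination lies from the added effects of both agents (log2), was called for 1 of 10 genes, *Nod2*, where 1.35% of all genes departed upward and 3.00% downward. At an unadjusted p under 0.05 there were 4. The medians of the departure were 0.72 for the 10 genes and -0.008 for all genes. Most calls in the step from FK506 to the combination were lost in some fits with a single library left out, but those of *Cd14* and *Tlr7* were not. The count of 6 in this step fell to 2 or 3 when any of the 6 FK506 or combination libraries was left out. With each such library left out the calls of *Tlr2*, *Nod1* and *Nod2* were lost.

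**Figure D1:**
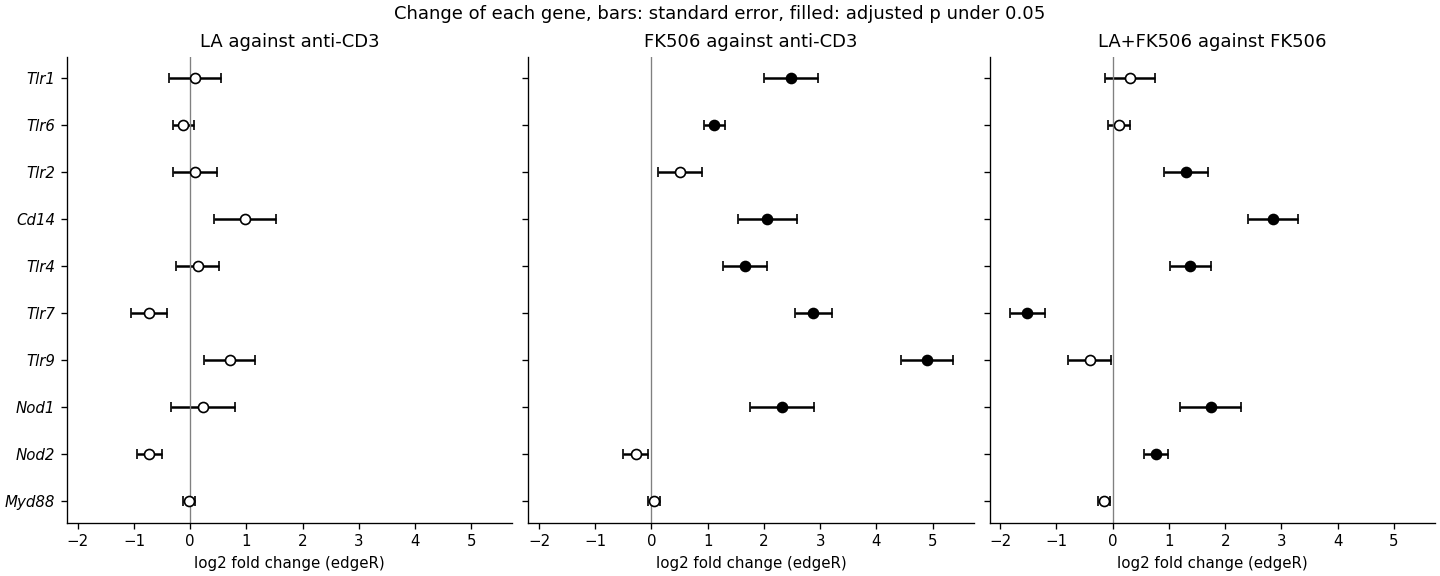
Log2 fold change (edgeR) of each of the 10 genes for *L. acidophilus* (LA) against anti-CD3 alone, FK506 against anti-CD3 alone and the combination (LA+FK506) against FK506, with bars for the standard error and filled circles for an adjusted p under 0.05. *Tlr9* lies farthest to the right in the FK506 panel at 4.90, *Cd14* in the combination panel at 2.85, and *Tlr7* is the filled circle left of 0 at -1.52.

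The lipoprotein receptors *Tlr1* and *Tlr6* had the same order of groups up to their overlaps, with both FK506 groups above both groups without FK506. *Tlr1* (NCBI gene 21897, chr5:64924680-64933600, minus strand, GRCm38.p6) was at 4.54, 1.67 and 2.24 FPKM in replicates 1, 2 and 3 with anti-CD3 alone, at 5.53, 1.84 and 1.94 with *L. acidophilus*, at 17.6, 20.7 and 12.5 with FK506 and at 28.5, 18.9 and 19.8 with the combination. Replicate 1 was the highest library in 3 of the groups, and the lowest FK506 library was still above the highest library without FK506. The rise over anti-CD3 alone was 5.58-fold with FK506 (log2 fold change 2.48 ± 0.48 SE, edgeR adjusted p = 0.00429) and 6.91-fold with the combination (2.79 ± 0.48, adjusted p = 0.000664). The combination and FK506 overlapped and were not called as different (0.31 ± 0.45, edgeR adjusted p = 0.694). *Tlr1* was, after *Myd88*, the most abundant of the 10 genes, with a mean of 11.3 FPKM over the 12 libraries.

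*Tlr6* (NCBI gene 21899, chr5:64953092-64970942, minus strand), the neighbour of *Tlr1* on chromosome 5, was at 2.01, 1.34 and 1.69 FPKM with anti-CD3 alone, 1.84, 1.55 and 1.42 with *L. acidophilus*, 3.3, 4.62 and 3.37 with FK506 and 4.63, 4.49 and 3.95 with the combination. Its groups separated in the same manner but by less. The fold change over anti-CD3 alone was 2.18 with FK506 (log2 1.12 ± 0.19, edgeR adjusted p = 0.00247) and 2.35 with the combination (1.23 ± 0.20, adjusted p = 0.000364). Across the 12 libraries, *Tlr1* and *Tlr6* correlated at r = 0.98 on log2(FPKM + 1), which is a description of libraries that share their groups. Reads of the pair can be split between them: 15.3% of the 50-base words of the *Tlr1* transcript also occur in *Tlr6*, and 12.6% of those of *Tlr6* occur in other genes, so their levels are uncertain to that extent. The RefSeq model of *Tlr6* also overlaps *Fam114a1* and *Mir574*, and the sources used here do not say whether the counting used strand. None of the other 8 transcripts shared a 50-base word with another gene.

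*Tlr2* codes for the common partner of Tlr1 and Tlr6. Unlike these genes it was called from FK506 to the combination and not with FK506 alone, although the difference between the genes was not tested, and it correlated with *Tlr1* and *Tlr6* at r = 0.81 and 0.77 over the 12 libraries. *Tlr2* (NCBI gene 24088, chr3:83836272-83841824, minus strand) was at 0.64, 0.411 and 0.234 FPKM with anti-CD3 alone, 0.737, 0.326 and 0.399 with *L. acidophilus*, 0.823, 0.61 and 0.595 with FK506 and 2.31, 1.49 and 1.52 with the combination. The 3 groups other than the combination formed an overlapping series, and every combination library was above all of them. *Tlr2* was not called with FK506 alone (log2 0.50 ± 0.39, edgeR adjusted p = 0.411). It was 2.46-fold higher with the combination than with FK506 (1.30 ± 0.39, adjusted p = 0.0363) and 3.47-fold higher than with anti-CD3 alone (1.80 ± 0.40, adjusted p = 0.00325). The call against FK506 was lost with any of the 6 libraries left out, with log2 values of 1.04 to 1.44 and adjusted p from 0.0597 to 0.118. Per length, *Tlr2* remained low beside its partners: its combination mean was 1.77 ± 0.466 FPKM (SD, n = 3), against 22.4 ± 5.28 for *Tlr1* and 4.36 ± 0.363 for *Tlr6*.

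*Cd14* and *Tlr4*, whose proteins act together on lipopolysaccharide, rose in both steps. *Cd14* (NCBI gene 12475) was at 0.0648, 0.0445 and 0.0392 FPKM with anti-CD3 alone, 0.155, 0.133 and 0.0302 with *L. acidophilus*, 0.262, 0.234 and 0.225 with FK506 and 2.71, 1.41 and 1.45 with the combination. These levels rest on 4 to 8 counts per library with anti-CD3 alone and 3 to 19 with *L. acidophilus*, but on 21 to 32 with FK506 and 122 to 325 with the combination. The groups did not overlap except for anti-CD3 alone and *L. acidophilus*. *Cd14* was 7.2-fold higher with the combination than with FK506 (log2 2.85 ± 0.45, edgeR adjusted p = 0.00168), a call that no left-out library removed, and 30.1-fold higher than with anti-CD3 alone (4.91 ± 0.53, adjusted p = 3.09e-05). The rise with FK506 alone was 4.18-fold (2.06 ± 0.53, edgeR adjusted p = 0.0175), and it missed the threshold without anti-CD3 replicate 2 (2.08, adjusted p = 0.0506) or replicate 3 (1.87, adjusted p = 0.0522) and with limma on log2(FPKM + 1), where *Cd14* was at 0.24 (adjusted p = 0.271).

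*Tlr4* (NCBI gene 21898, chr4:66827551-66846581, plus strand) was at 0.154, 0.0937 and 0.164 FPKM with anti-CD3 alone, 0.273, 0.0968 and 0.1 with *L. acidophilus*, 0.553, 0.564 and 0.297 with FK506 and 1.18, 1.37 and 1.36 with the combination. The combination libraries lay well above the FK506 libraries, and the lowest FK506 library was only slightly above the highest *L. acidophilus* library. *Tlr4* rose 3.15-fold with FK506 (log2 1.66 ± 0.39, edgeR adjusted p = 0.0117) and 8.19-fold with the combination against anti-CD3 alone (3.03 ± 0.40, adjusted p = 0.000112). The step from FK506 to the combination was 2.6-fold (1.38 ± 0.37, edgeR adjusted p = 0.0238). That call was lost without FK506 replicate 3 (1.14, adjusted p = 0.0999), combination replicate 2 (1.34, adjusted p = 0.0676) or combination replicate 3 (1.36, adjusted p = 0.0636).

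The macrophage and monocyte markers moved with these genes. Of the 12 markers, 8 rose and 1 fell with FK506 against anti-CD3 alone, 7 rose and 0 fell from FK506 to the combination, and 10 rose and 0 fell from anti-CD3 alone to the combination. *Lyz2*, the lysozyme gene of myeloid cells, was at 0 to 0.0327 FPKM with anti-CD3 alone and at 30.8, 14.5 and 16.1 with the combination. *Adgre1*, the F4/80 gene of macrophages, was at 8.75, 1.55 and 1.4 with the combination. Both were highest in the replicate-1 library, which among the combination libraries was also highest for *Cd14* and *Tlr2* but lowest for *Tlr4*. The marker that fell was *Ly6c2*, a monocyte gene that T cells can carry too, at 11.4, 4.57 and 8.81 FPKM with anti-CD3 alone and 2.43, 0.67 and 1.85 with FK506 (log2 -2.38 ± 0.70, edgeR adjusted p = 0.0328). It made up most of the 12-marker sum with anti-CD3 alone. Without it, a choice made after the values were seen, the other 11 markers summed to 48.5 to 75.9 FPKM with the combination and 5.4 to 18.2 with FK506, against 2.22 to 3.58 with anti-CD3 alone and 3.58 to 7.31 after adding *L. acidophilus*, so that FK506 no longer overlapped anti-CD3 alone. The ratio of *Cd14* to the markers, also chosen after the values were seen, depended on that gene. Per 1000 FPKM of all 12 markers, *Cd14* was at 28.2 to 33.2 with the combination and at 12.7 to 31 with FK506, against 3.56 to 6.19 with anti-CD3 alone and 4.58 to 23.9 after adding *L. acidophilus*. Per 1000 FPKM of the 11 markers it was at 28.8 to 35.7 with the combination and at 14.4 to 41.6 with FK506, against 17 to 18.1 with anti-CD3 alone and 8.45 to 32.9 after adding *L. acidophilus*, and the combination overlapped the FK506 and *L. acidophilus* groups. For *Tlr4* the order of the groups turned with that gene. Its ratio to all 12 markers was 10.3 to 14.8 with anti-CD3 alone and 14.4 to 27.6 with the combination, whereas its ratio to the 11 markers was 35.8 to 73.8 and 15.5 to 28.3. With FK506 and with *L. acidophilus*, *Tlr4* was at 30.4 to 56.2 and 24 to 37.3 per 1000 FPKM of the 11 markers, both overlapping anti-CD3 alone. *Tlr2* was at 21.2 to 57.2 per 1000 FPKM of the 12 markers with anti-CD3 alone, 58.7 to 61.5 after adding *L. acidophilus*, 39.9 to 82 with FK506 and 28.3 to 29.9 with the combination. Per 1000 FPKM of the 11 markers it was at 106 to 179, 80.6 to 111, 45.2 to 110 and 30.1 to 30.7 in that order of groups, so the combination was below every other library. Of 7 tested markers of dendritic cells, 2 rose and 1 fell from FK506 to the combination, where 8.18% of all tested genes rose and 10.9% fell. The genes that rose were *Flt3*, which codes for a cytokine receptor of dendritic cells and their precursors, 4.86-fold (edgeR adjusted p = 0.00685), and the transcription factor gene *Zbtb46*, 2.77-fold (adjusted p = 0.0017). *Itgax* fell 2.26-fold (log2 -1.18 ± 0.30, edgeR adjusted p = 0.018). From anti-CD3 alone to the combination, 2 of these markers rose and 1 fell. *Flt3* was 22.1-fold higher (edgeR adjusted p = 6.17e-05) and *Batf3* was 15.5-fold lower (adjusted p = 5.11e-05). The part of other cells in the levels of *Cd14*, *Tlr4* and *Tlr2* was not tested beyond these ratios. In RNA from a whole culture, a change in how many cells of a type there are cannot be told apart from a change in RNA per cell.

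**Figure D2:**
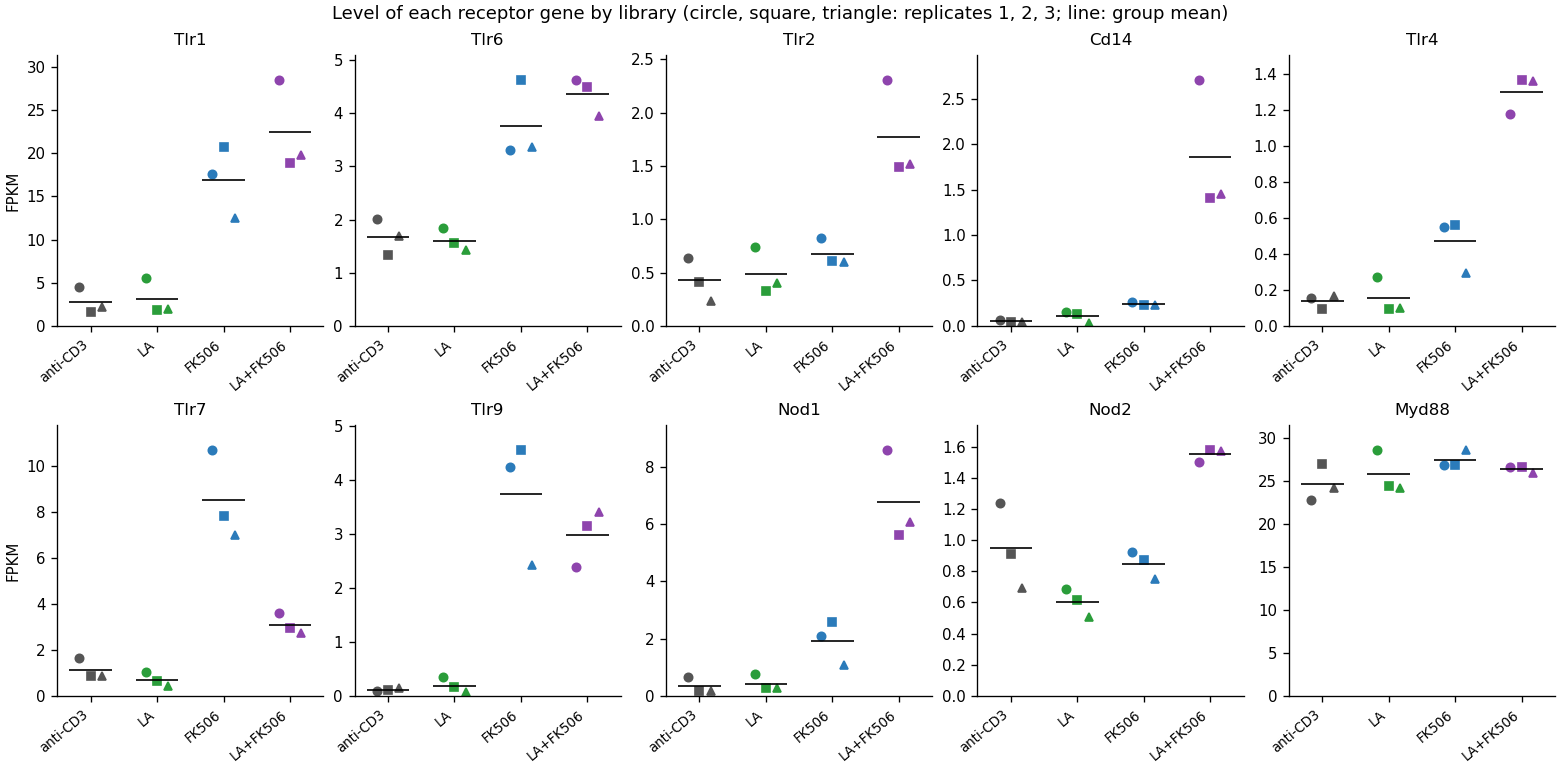
FPKM (y axis, from 0, on a scale of its own in each panel) of the 10 genes in the 12 libraries (x axis, 4 groups, LA for *L. acidophilus*), with circles, squares and triangles for replicates 1, 2 and 3 and a line for the group mean. *Tlr7* is highest with FK506, *Cd14*, *Tlr4*, *Tlr2*, *Nod1* and *Nod2* are highest with the combination, and *Myd88* stays between 22.7 and 28.6 FPKM throughout.

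The endosomal receptor genes *Tlr7* and *Tlr9* had the highest estimated fold changes with FK506 among the 10. *Tlr7* (NCBI gene 170743, chrX:167303380-167330574, minus strand), whose protein senses single-stranded RNA, was at 1.64, 0.861 and 0.868 FPKM with anti-CD3 alone, 1.04, 0.642 and 0.451 with *L. acidophilus*, 10.7, 7.8 and 6.99 with FK506 and 3.61, 2.93 and 2.73 with the combination. FK506 gave the highest 3 libraries, and the combination came between FK506 and the groups without FK506, with no overlap on either side. The rise was 7.37-fold with FK506 (log2 2.88 ± 0.33, edgeR adjusted p = 0.000253) and 2.57-fold with the combination (1.36 ± 0.31, adjusted p = 0.00423). With edgeR on all 12 libraries, *Tlr7* was the only 1 of the 10 genes called lower in any comparison, 2.87-fold lower with the combination than with FK506 (-1.52 ± 0.31, edgeR adjusted p = 0.00601). With *L. acidophilus* alone it was at -0.73 ± 0.32 (edgeR adjusted p = 0.314), which did not pass.

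*Tlr9* (NCBI gene 81897, chr9:106222598-106226876, plus strand), whose protein senses CpG DNA, was at 0.085, 0.118 and 0.14 FPKM with anti-CD3 alone, 0.344, 0.158 and 0.0724 with *L. acidophilus*, 4.25, 4.57 and 2.43 with FK506 and 2.4, 3.15 and 3.42 with the combination. The groups without FK506 rested on 15 to 88 counts per library, and the 2 groups with FK506 were far above them and overlapped each other. *Tlr9* rose 29.8-fold with FK506 (log2 4.90 ± 0.47, edgeR adjusted p = 0.000116) and 22.4-fold with the combination (4.48 ± 0.46, adjusted p = 2.46e-05). From FK506 to the combination it was not called (-0.41 ± 0.38, edgeR adjusted p = 0.491), so *Tlr7* and *Tlr9* took different courses in that step, although the difference between the genes was not tested.

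Markers of B cells, which carry both of these receptors, moved as well. Of the 14 markers, 13 rose with FK506 and 0 fell, and from FK506 to the combination 9 fell and 0 rose. *Ms4a1*, the CD20 gene of B cells, was at 2.3 to 2.88 FPKM with anti-CD3 alone, 26.1 to 61.2 with FK506 and 19.6 to 25.9 with the combination. A ratio to the summed markers was again chosen after the values were seen. *Tlr7* lay between 13.8 and 27 FPKM per 1000 FPKM of B-cell markers in all 12 libraries, a span of 1.96-fold, while *Tlr7* itself spanned 23.8-fold and the marker sum 17.7-fold. *Tlr9* did not keep a constant ratio: it was 1.17 to 3.21 with anti-CD3 alone, and 2.47 to 8.27 with *L. acidophilus*, but 8.17 to 10.5 with FK506 and 13.7 to 17.3 with the combination, a span of 14.8-fold. The part of B cells in the levels of *Tlr7* and *Tlr9* was not tested beyond these ratios.

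**Figure D3:**
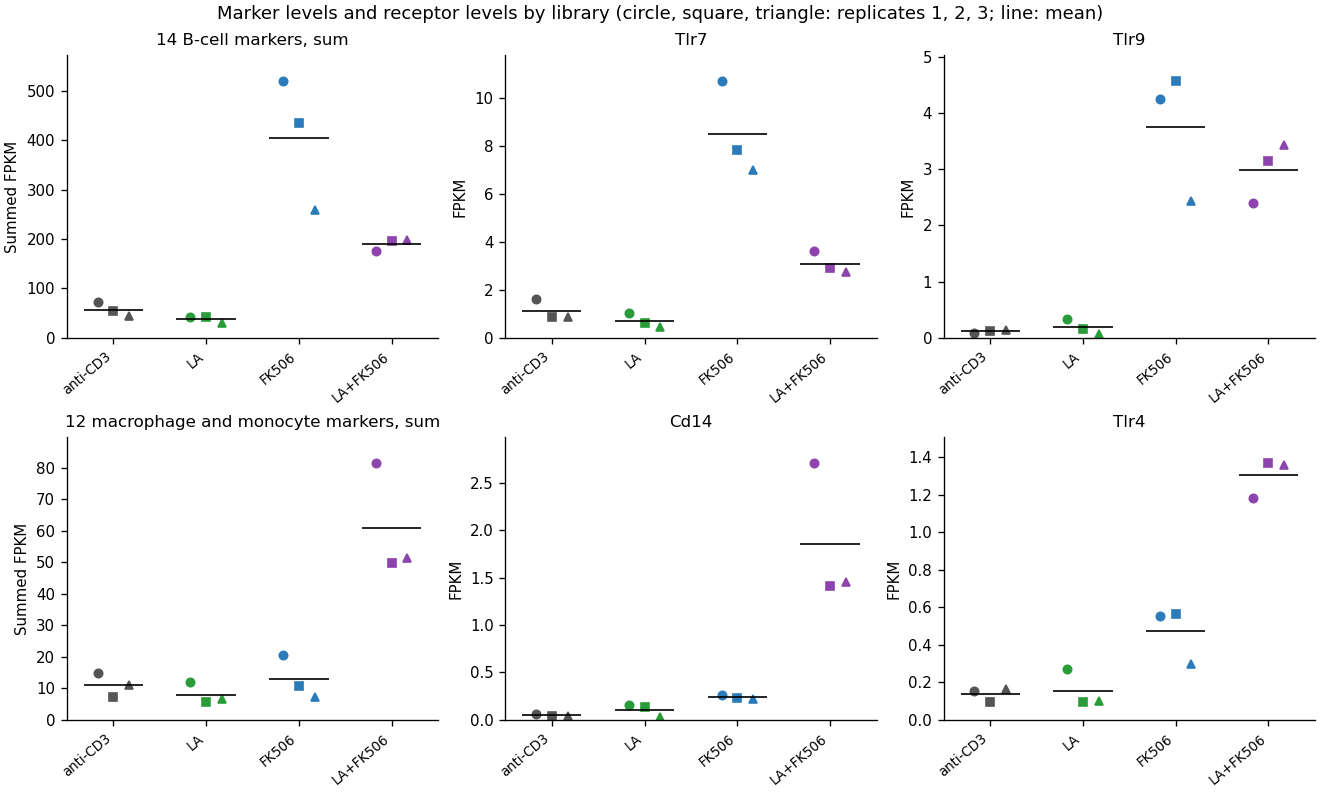
Summed FPKM of 14 B-cell markers beside the FPKM of *Tlr7* and *Tlr9* (upper row), and summed FPKM of 12 macrophage and monocyte markers beside the FPKM of *Cd14* and *Tlr4* (lower row), for the 12 libraries by group (LA for *L. acidophilus*). Circles, squares and triangles are replicates 1, 2 and 3, and lines are means; the B-cell sum and *Tlr7* are highest with FK506 (259 to 520 and 6.99 to 10.7), and the macrophage and monocyte sum and *Cd14* are highest with the combination (49.8 to 81.6 and 1.41 to 2.71).

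Of the peptidoglycan sensor genes, *Nod1* was called with FK506 alone and *Nod2* was not, although the difference between the genes was not tested. *Nod1* (NCBI gene 107607, chr6:54923942-54972674, minus strand) was at 0.669, 0.184 and 0.161 FPKM with anti-CD3 alone, 0.75, 0.272 and 0.266 with *L. acidophilus*, 2.1, 2.57 and 1.07 with FK506 and 8.6, 5.61 and 6.06 with the combination. Replicate 1 was the highest library in each group but FK506, and the groups with FK506 and with the combination each stood clear of the rest. *Nod1* was 16.7-fold higher with the combination than with anti-CD3 alone (log2 4.06 ± 0.61, edgeR adjusted p = 0.000245), and without anti-CD3 replicate 1 the log2 fold change was 5.06. The rise with FK506 alone was 4.99-fold (2.32 ± 0.57, edgeR adjusted p = 0.0151), and it missed the threshold without anti-CD3 replicate 2 (2.04, adjusted p = 0.0588) or FK506 replicate 2 (2.05, adjusted p = 0.0601) and grew to 3.32 without anti-CD3 replicate 1. The step from FK506 to the combination was 3.35-fold (1.74 ± 0.54, edgeR adjusted p = 0.0426). It missed the threshold with any of the 6 libraries left out, with log2 values of 1.46 to 2.01 and adjusted p from 0.0591 to 0.154.

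*Nod2* (NCBI gene 257632, chr8:88647315-88688474, plus strand), whose protein binds muramyl dipeptide, was at 1.24, 0.912 and 0.694 FPKM with anti-CD3 alone, 0.689, 0.613 and 0.509 with *L. acidophilus*, 0.921, 0.869 and 0.749 with FK506 and 1.5, 1.58 and 1.57 with the combination. In FPKM, every *L. acidophilus* library was below every other library, though only just (0.689 against 0.694 with anti-CD3 alone). Every combination library was above every other library. The 3 combination libraries agreed closely, with a mean of 1.55 ± 0.0438 FPKM (SD, n = 3). Adding *L. acidophilus* gave a log2 difference of -0.73 ± 0.22 without FK506 (edgeR adjusted p = 0.165) and a rise of 1.71-fold with FK506 present (0.77 ± 0.22, adjusted p = 0.0308).

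*Nod2* was the gene whose combination value departed from the added effects of both agents, by a log2 value of 1.51 ± 0.32 (edgeR adjusted p = 0.0232). The departure missed the threshold without *L. acidophilus* replicate 2 or 3, FK506 replicate 3, or combination replicate 2 or 3, with *Nod2* values of 1.39 to 1.52 and adjusted p from 0.0554 to 0.0663. It was also lost without replicate 1, replicate 2 or replicate 3 of all groups (1.41, 1.54 and 1.51, adjusted p = 0.0645, 0.208 and 0.217). The step from FK506 to the combination missed it with any of the 6 libraries left out (0.70 to 0.83, adjusted p from 0.058 to 0.11). Against anti-CD3 alone, the combination was 1.4-fold higher in *Nod2* without a call (0.49 ± 0.22, edgeR adjusted p = 0.094). That comparison was called without anti-CD3 replicate 1 (0.75, adjusted p = 0.015) and with the replicate number as a block (0.53, adjusted p = 0.0345), and the one with *L. acidophilus* was called without anti-CD3 replicate 3 (-0.94, adjusted p = 0.046).

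*Myd88* (NCBI gene 17874, chr9:119335934-119340018, minus strand) codes for the adaptor that most Toll-like receptors share, and it was the most abundant of the 10 genes. It was at 22.7, 26.9 and 24.1 FPKM with anti-CD3 alone, 28.6, 24.4 and 24.2 with *L. acidophilus*, 26.8, 26.8 and 28.6 with FK506 and 26.6, 26.6 and 25.9 with the combination. The libraries spanned 1.26-fold in all, whereas *Cd14* spanned 89.8-fold and *Tlr9* 63.1-fold. *Myd88* was not called in any comparison, and its log2 fold changes were between -0.15 and 0.04 with an SE of 0.11. The sign of these small values depended on the scaling: the combination against anti-CD3 alone was -0.11 with TMM factors (edgeR adjusted p = 0.456) and 0.11 without them, a change that shifted the median of all genes by 0.205.

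Of the 10 genes, 7 had a promoter window in the RefSeq table used (GRCm38.p6, 250 bases before to 50 after a start). For *Tlr9* that start is the gene start given above. For *Nod1* and *Tlr2* it lies inside the gene positions given above, so more than 50 bases of the gene are in the window. Those of 3 genes with different courses are shown: *Tlr9*, with the largest rise with FK506, *Nod1*, called higher in both steps, and *Tlr2*, called in the step from FK506 to the combination but not with FK506 alone. They are written 5′ to 3′ on the gene's strand, with capitals for matches on either strand to the NFAT core GGAAA, the PU.1 core GAGGAA, the interferon regulatory factor (IRF) element of GAAA, any 2 bases and GAAA, or the NF-kB site. The *Tlr9* window, at chr9:106222348-106222647, held 1 GGAAA and 2 GAGGAA, and a GGAAA stands directly before a GAGGAA in it.
Tlr9: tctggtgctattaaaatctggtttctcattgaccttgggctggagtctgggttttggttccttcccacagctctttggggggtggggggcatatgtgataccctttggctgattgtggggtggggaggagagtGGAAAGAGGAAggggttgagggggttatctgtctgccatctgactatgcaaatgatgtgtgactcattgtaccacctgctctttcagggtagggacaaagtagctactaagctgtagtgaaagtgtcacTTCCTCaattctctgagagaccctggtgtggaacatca
The *Nod1* window, at chr6:54972563-54972862, held 1 GGAAA and none of the other motifs.
Nod1: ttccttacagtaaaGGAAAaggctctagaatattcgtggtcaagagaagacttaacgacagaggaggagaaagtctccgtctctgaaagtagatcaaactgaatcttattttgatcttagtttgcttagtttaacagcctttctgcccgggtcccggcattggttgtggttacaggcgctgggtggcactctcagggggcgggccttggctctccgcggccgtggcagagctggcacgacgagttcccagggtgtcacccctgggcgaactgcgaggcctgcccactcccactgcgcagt
The *Tlr2* window, at chr3:83841559-83841858, held 3 matches to the NF-kB site, of which the leading 2 overlap in a single run of capitals, and none of the other motifs.
Tlr2: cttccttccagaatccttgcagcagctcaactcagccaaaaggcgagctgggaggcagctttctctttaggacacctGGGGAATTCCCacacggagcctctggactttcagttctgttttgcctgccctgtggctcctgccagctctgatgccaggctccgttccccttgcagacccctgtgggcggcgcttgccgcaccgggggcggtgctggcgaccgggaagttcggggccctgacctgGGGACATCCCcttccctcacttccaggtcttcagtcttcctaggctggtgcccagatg
In the windows not shown, *Tlr1* and *Tlr6*, both called higher with FK506, held 0 GGAAA. *Nod2* and *Myd88*, not called with FK506, held 2 GGAAA each. *Tlr1* also held 1 GAGGAA, *Tlr6* 2 IRF elements and *Myd88* 1 IRF element, and none of these windows held an NF-kB site. Among 32851 promoter windows of this length, 61.3% held GGAAA, 28.3% GAGGAA, 3.44% the IRF element and 8.46% an NF-kB site. A match describes the letters of the window and is not a measured binding site.

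Beyond the 10 genes, 51 further genes of these pathways were listed, of which 50 were tested. With FK506 against anti-CD3 alone, 17 rose and 5 fell, with a median log2 fold change of 0.28, where 10.2% of all tested genes rose and 8.81% fell. With the combination against anti-CD3 alone, 28 rose and 8 fell (median 0.52), against 21.5% and 21.8% of all genes. With the combination against FK506, 8 rose and 2 fell (median 0.06), against 8.18% and 10.9%. The counts in the single lists that follow stand against the same shares, and a list with 1 or 2 calls in a direction is too short to be set apart from them. With *L. acidophilus* against anti-CD3 alone, edgeR called 0 of the 50. The departure from the added effects was called upward for 3 and downward for 0: *Slc15a3*, whose protein carries peptidoglycan fragments out of endosomes (1.68 ± 0.33, edgeR adjusted p = 0.0188), the kinase gene *Irak2* (1.65 ± 0.21, adjusted p = 0.00447) and the transcription factor gene *Irf5* (1.52 ± 0.30, adjusted p = 0.0181). Those of *Slc15a3* and *Irf5* were lost with some single libraries left out, *L. acidophilus* replicate 3 and FK506 replicate 3 in both and *L. acidophilus* replicate 2 in *Slc15a3*, with adjusted p of up to 0.275 and 0.312 over all settings. All 3 departures, that of *Irak2* included, were lost without replicate 2 or replicate 3 of all groups, with adjusted p of 0.0816 and 0.148 for *Irak2*.

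Most of the other Toll-like receptor genes were scarce. Of 5 tested, 4 rose and 1 fell with the combination against anti-CD3 alone, with a median log2 fold change of 6.71 as fitted and 2.63 with the 3 genes that had a group at 0 set to their bound. *Tlr3* and *Tlr8* had 0 counts in all anti-CD3 libraries and 10 to 41 and 9 to 43 counts with the combination, so they were at least 6.18-fold and 6.32-fold higher against a floor of 3 counts per library. Both calls were lost without combination replicate 1 (adjusted p of up to 0.076 for *Tlr3* and 0.0684 for *Tlr8* over all settings). *Tlr5*, the flagellin receptor gene, went the other way, from 0 to 17 counts with anti-CD3 alone to 0 throughout the combination, at least 3.64-fold lower. Of the anti-CD3 libraries, replicate 2 was itself at 0, and the *Tlr5* call was lost with limma, with the 6 libraries of the comparison alone (edgeR adjusted p = 0.0541), and without the 4 replicate-1 or the 4 replicate-3 libraries (adjusted p = 0.105 and 0.102). *Tlr13*, whose protein senses bacterial ribosomal RNA, had 0 to 3 counts with anti-CD3 alone, 6 to 25 with FK506 and 114 to 144 with the combination, an 8.36-fold rise from FK506 (log2 3.06 ± 0.68, edgeR adjusted p = 0.00911). *Tlr12* resembled *Tlr7*: it rose 6.26-fold with FK506 (2.65 ± 0.23, edgeR adjusted p = 9.68e-05) and was 1.87-fold lower with the combination than with FK506 (-0.90 ± 0.22, adjusted p = 0.0135), a call lost without FK506 replicate 3 or combination replicate 2 (adjusted p of up to 0.18 over all settings). *Tlr11* had 0 to 5 counts in the combination libraries and 0 in the others and was not tested.

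Among 13 genes of receptor partners and chaperones, 6 rose and 1 fell with FK506 (median log2 fold change 0.82), and 3 rose and 1 fell from FK506 to the combination (median 0.02). *Cd180*, which codes for a Toll-like protein of B cells that dampens or modifies Tlr4 signals, had the largest rise with FK506 in this list, from 0.26, 0.0928 and 0.134 FPKM with anti-CD3 alone to 10.2, 10.6 and 4.07 with FK506 and 5.92, 7.26 and 7.75 with the combination. It rose 43.1-fold with FK506 (log2 5.43 ± 0.54, edgeR adjusted p = 0.000134). *Ly86*, the partner of *Cd180*, rose 6.47-fold with FK506 (2.69 ± 0.35, adjusted p = 0.000524), and *Unc93b1*, which codes for the chaperone that carries Tlr7 and Tlr9 to endosomes, rose 2.64-fold (1.40 ± 0.22, adjusted p = 0.00144). *Clec7a*, the Dectin-1 gene of myeloid cells, rose 9.95-fold with FK506 (3.31 ± 0.44, edgeR adjusted p = 0.000561) and a further 4.66-fold with the combination (2.22 ± 0.39, adjusted p = 0.00271). *Cd36*, a scavenger receptor gene that assists Tlr2 and Tlr6, followed the same course at 12.1-fold and 3.28-fold. *Ly96*, which codes for the MD-2 partner of Tlr4, was 2.41-fold higher with the combination than with anti-CD3 alone (1.27 ± 0.26, edgeR adjusted p = 0.00211). The gene that fell with FK506 was *Slc15a3*, 2.31-fold lower (-1.21 ± 0.23, edgeR adjusted p = 0.00456). *Lbp*, which codes for a carrier of lipopolysaccharide, had 32, 4 and 0 counts in replicates 1, 2 and 3 with anti-CD3 alone and 0 in all combination libraries. It was called lower (edgeR adjusted p = 0.022), but the call was lost without anti-CD3 replicate 1 (adjusted p = 0.0957) and under 10 of 22 alternatives in all. The smallest called changes of this list were those of *Ly96* with FK506 (0.82, adjusted p = 0.0462) and of the chaperone gene *Hsp90b1* with the combination against anti-CD3 alone (-0.62, adjusted p = 0.0308), lost under 15 and 8 of 23 alternatives.

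The adaptors went in both directions. With FK506, 3 of 7 rose and 2 fell, with a median log2 fold change of 0.39. *Ripk2*, which codes for the kinase through which both Nod receptors signal, fell while *Nod1* rose: it was at 21.7, 24.9 and 32 FPKM with anti-CD3 alone, 9.62, 19.4 and 21.9 with *L. acidophilus*, 5.74, 5.73 and 7.59 with FK506 and 8.13, 8.4 and 7.71 with the combination. It was 4.44-fold lower with FK506 (log2 -2.15 ± 0.26, edgeR adjusted p = 0.000375) and 3.72-fold lower with the combination (-1.89 ± 0.26, adjusted p = 0.000142). *Tirap*, which bridges Tlr2 and Tlr4 to MyD88, was 3.21-fold lower with FK506 (-1.68 ± 0.26, adjusted p = 0.00126) and 4.04-fold lower with the combination (-2.01 ± 0.26, adjusted p = 0.000101). *Card9*, which acts below Dectin-1 and Nod2, rose 8.13-fold with the combination against anti-CD3 alone (3.02 ± 0.41, edgeR adjusted p = 0.000124). The smallest called change of an adaptor was that of *Ticam2* with FK506 (1.09 ± 0.30, edgeR adjusted p = 0.0241), which was lost under 6 of 23 alternatives.

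Of 16 kinases, ligases and factors, 4 rose and 1 fell with FK506 (median log2 fold change 0.19), and 2 rose and 0 fell from FK506 to the combination (median 0.11). *Irak2*, a kinase gene below MyD88, reversed its direction between the steps: it was 1.81-fold lower with FK506 than with anti-CD3 alone (log2 -0.86 ± 0.15, edgeR adjusted p = 0.00254) and 2.3-fold higher with the combination than with FK506 (1.20 ± 0.15, adjusted p = 0.000463). Its levels were 13.1, 10.1 and 9.71 FPKM with anti-CD3 alone, 8.29, 8.67 and 8.74 with *L. acidophilus*, 6.81, 7.7 and 5.25 with FK506 and 16.1, 16.1 and 16 with the combination. These groups did not overlap, but *Irak2* was not called with the combination against anti-CD3 alone. The smallest called changes were those of *Tab2* with FK506 (0.31 ± 0.09, edgeR adjusted p = 0.0339) and of *Irak1* with the combination against anti-CD3 alone (0.23 ± 0.08, adjusted p = 0.0461), and they were lost under 13 and 15 of 23 alternatives. The largest rise of this list with the combination against anti-CD3 alone was that of *Irf5* (0.86 ± 0.21, adjusted p = 0.00578). Of 9 inhibitors, 2 rose and 1 fell with FK506 (median 0.21), and 6 rose and 1 fell with the combination against anti-CD3 alone (median 0.51). *Il1rl1*, which codes for the interleukin-33 receptor ST2, had the largest changes among them. It was at 0.702, 0.278 and 0.273 FPKM with anti-CD3 alone, 4.93, 1.22 and 1.46 with FK506 and 3.3, 1.96 and 2.2 with the combination. The *Il1rl1* values were 2.48 ± 0.77 with FK506 (edgeR adjusted p = 0.043) and 2.37 ± 0.77 with the combination (adjusted p = 0.0264), lost under 10 and 5 of 23 alternatives. Without FK506 replicate 1, its highest library, *Il1rl1* was at 1.60 with FK506 (adjusted p = 0.187). *Irak3*, which blocks the IRAK kinases in myeloid cells, rose 3.97-fold with the combination (1.99 ± 0.48, edgeR adjusted p = 0.00578), and *Sigirr*, a decoy-like receptor gene, was 1.78-fold lower (-0.83 ± 0.14, adjusted p = 0.000437). The smallest called change was that of *Cyld*, the gene of a deubiquitinase, with the combination (0.41 ± 0.11, adjusted p = 0.0107).

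**Figure D4:**
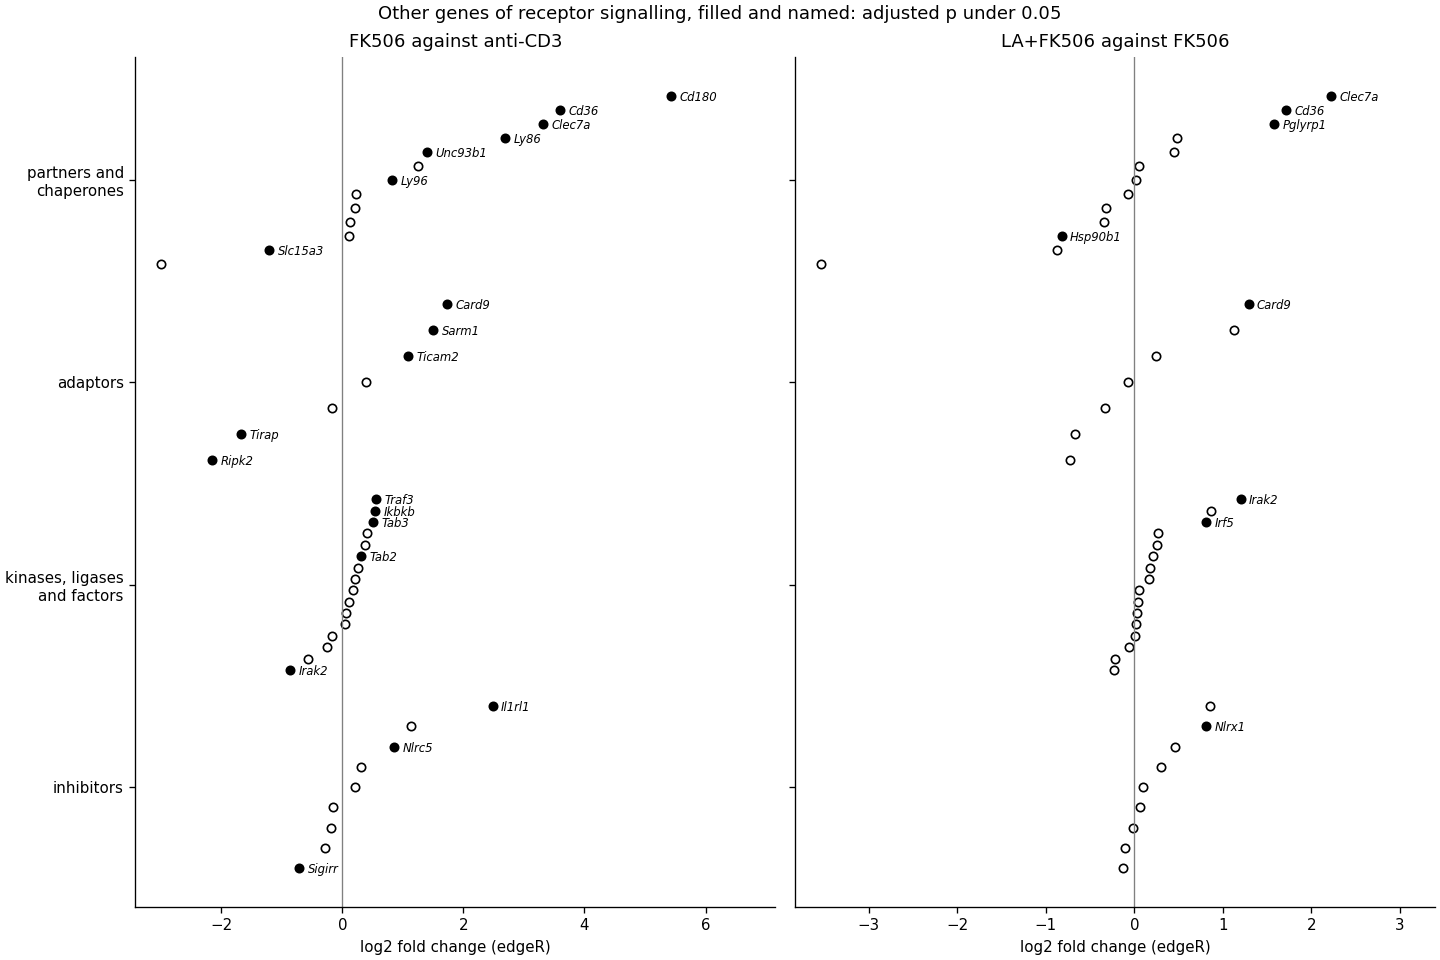
Log2 fold change (edgeR, x axis) of the partners and chaperones, adaptors, kinases, ligases and factors, and inhibitors (rows of points, one gene each) for FK506 against anti-CD3 alone and for the combination (LA+FK506) against FK506. Filled and named points have an adjusted p under 0.05; *Cd180* is farthest to the right at 5.43 with FK506 and *Ripk2* is the leftmost filled point at -2.15, while *Clec7a* at 2.22 and *Irak2* at 1.20 are among the 8 of all 50 genes that rose from FK506 to the combination.

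For the members with a mean of at least 1 FPKM, the 3 genes with the most similar pattern over the 12 libraries were found by Pearson's r on log2(FPKM + 1) among 12220 genes, as a description. *Tlr9* was closest to *Cd180* (r = 0.996), *Ighd* (r = 0.995) and *Rasgrp3* (r = 0.993), and *Tlr7* to *Cd22* (r = 0.990), *H2-DMb2* (r = 0.988) and *Ighv5-17* (r = 0.988). *Ighd* and *Ighv5-17* are immunoglobulin heavy-chain genes, and *Cd22* codes for a B-cell surface protein that is also in the marker list used here. *Tlr1* was closest to *St6gal1* (r = 0.992), *Rassf2* (r = 0.986) and *B3gntl1* (r = 0.983), and *Tlr6* to *Rassf2* (r = 0.986), *LOC115486905* (r = 0.984) and *Pecam1* (r = 0.982). *Nod1* was closest to *Il18r1* (r = 0.994), the gene of an interleukin-18 receptor chain, *Gm30054* (r = 0.993) and *Peg13* (r = 0.991). *Myd88*, which varied little, had no comparably close gene, with r = 0.889 for *Coa7* at best. All of these libraries share their groups, so genes that differ between the same groups correlate.

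Within the 10 genes, the same measure gave a graded series rather than separate groups. *Cd14*, *Tlr2*, *Tlr4* and *Nod1* correlated with each other at r = 0.91 to 0.97 and reached their highest levels with the combination. *Tlr7* correlated with *Cd14* at r = 0.30, with *Tlr2* at 0.39 with *Tlr4* at 0.49 and with *Nod1* at 0.56, and with *Tlr9* at 0.89. *Tlr9* correlated with *Nod1* at 0.80 and with *Tlr4* at 0.78, and *Tlr1* correlated at 0.81 to 0.91 with *Tlr2*, *Tlr4* and *Nod1* and at 0.83 and 0.94 with *Tlr7* and *Tlr9*. Without the 4 replicate-1 libraries, the deepest and those with the highest *Tlr1* and *Nod1* in the groups without FK506, edgeR called 7 of the 10 genes with FK506, 9 with the combination against anti-CD3 alone and 6 with the combination against FK506. Without the 4 replicate-2 libraries the counts were 2, 7 and 1, and without the 4 replicate-3 libraries they were 6, 8 and 1, so most calls from FK506 to the combination, and without replicate 2 most of those with FK506, were lost.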

How the data were processed

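CD4+ T cells in 12 samples of 4 groups were profiled by poly(A) RNA sequencing. Per the submitters' processing notes, bcl2fastq 2.20.0, Trimmomatic, HISAT2 2.1.0 and StringTie 2.1.3b were used with mm10/GRCm38. The authors deposited, for each of 45777 genes and each library, a read count, which is a whole number and may be a rounded estimated count from StringTie, an FPKM value (per kilobase and per unit of depth) and a TPM value. The 12 columns of TPM deposited were not used. The study's methods also name quantile normalization, which the FPKM values do not show.

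A gene entered the test if its count was above 0 in 3 or more libraries, which 23585 genes met, and counts were tested with edgeR 4.0.16 in R 4.3.3 (TMM factors, quasi-likelihood F test, 1 mean per group, two-sided, Benjamini-Hochberg over all genes). The SE was derived from the fold change and its F statistic. The precision follows from 45416397 to 64658165 counts per library. No 2 libraries of a group were within sampling noise of each other. Permuting 3 against 3 libraries exactly, p = 0.1 is the smallest value a gene can reach. Alternatives were DESeq2 1.42.0, limma 3.58.1 on log2(FPKM + 1) and log2(FPKM + 0.1), other filters and scalings, a 2-fold cut, the replicate number as a block and left-out libraries.

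The 10 genes, the pathway lists and the marker lists were chosen with earlier results of these data known. All 10 are named, and of a list those with a defining role and those with the largest and smallest changes among called genes with FK506 or the combination against anti-CD3 alone. Positions and promoters come from RefSeq (GRCm38.p6). Shared 50-base words were counted over annotated transcripts of GRCm38. Figures were drawn with matplotlib 3.10.9.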

Additional observations from a re-analysis of the deposited data

Results flagged for a closer look

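The departure of *Nod2* from the added effects of both agents, a log2 value of 1.51 (SE 0.32, edgeR adjusted p = 0.0232, lost under 8 of 22 alternatives with adjusted p of up to 0.217), was singled out because the value with *L. acidophilus* had opposite signs without and with FK506, of which that without FK506 was not called. Without FK506 the *Nod2* value was -0.73 (edgeR adjusted p = 0.165), with all 3 *L. acidophilus* libraries (0.509 to 0.689 FPKM) below all 3 anti-CD3 libraries (0.694 to 1.24 FPKM). With FK506 present it was 0.77 (adjusted p = 0.0308), with all 3 combination libraries (1.5 to 1.58 FPKM) above all 3 FK506 libraries (0.749 to 0.921 FPKM).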

How the results depend on the processing

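The counts of called genes among the 10 kept within 1.5 times under every alternative for the combination against anti-CD3 alone (7 to 9) and against *L. acidophilus* (8 to 9). With FK506 against anti-CD3 alone, left-out libraries gave 2 to 7, the 2 without replicate 2 of all groups. With *L. acidophilus* against anti-CD3 alone, DESeq2 called 1, and left-out libraries gave 0 to 1. From FK506 to the combination, left-out libraries gave 1 to 6, the 1 without replicate 2 or without replicate 3 of all groups. For the departure, limma called 4 on log2(FPKM + 1) and 2 on log2(FPKM + 0.1), and left-out libraries gave 0 to 2. The causes of these shifts were not tested, except that fewer libraries were fitted.

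Values that changed sign were all uncalled. Without TMM factors and with limma at pseudocounts of 1 and 0.1, *Myd88* was at 0.11, 0.1 and 0.1 for the combination against anti-CD3 alone, at 0.06, 0.06 and 0.07 for *L. acidophilus*, and at 0.04 in all 3 for the combination against *L. acidophilus*. The rest came from left-out libraries. For *L. acidophilus* against anti-CD3 alone the ranges were -0.68 to 0.64 (*Tlr1*), -0.33 to 0.5 (*Tlr2*), -0.54 to 0.48 (*Tlr4*), -0.26 to 0.02 (*Tlr6*), -0.21 to 1.22 (*Tlr9*), -0.45 to 1.23 (*Nod1*) and -0.14 to 0.11 (*Myd88*). They were -0.01 to 0.16 for *Myd88* with FK506, -0.04 to 0.3 for *Tlr6* from FK506 to the combination, and -0.34 to 0.99 (*Tlr1*) and -1.96 to 0 (*Tlr9*) for the departure.

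*Nod2* with the combination against anti-CD3 alone passed with DESeq2 (0.53, adjusted p = 0.0437), without TMM factors (0.70, adjusted p = 0.0213) and with limma (0.40 and 0.69). Low genes have smaller values on log2(FPKM + 1), such as 1.42 for *Cd14* where edgeR gave 4.91.

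The labels do not say that replicate numbers mark a shared source. The deviations of same-numbered libraries correlated at 0.219 on average (12 of 18 over 0.1) and those of different-numbered ones at -0.103. All 3 same-numbered pairs were over 0.1 for anti-CD3 alone with *L. acidophilus* (0.545, 0.349 and 0.328) and for *L. acidophilus* with the combination (0.231, 0.137 and 0.192), a hint of pairing in the data, but not for the other group pairs. With the replicate block, 9, 7, 0, 6, 9 and 1 genes were called for the combination, FK506 and *L. acidophilus* against anti-CD3 alone, the combination against FK506 and against *L. acidophilus*, and the departure. The added call was *Nod2* with the combination against anti-CD3 alone (0.53, adjusted p = 0.0345), and the block changed no other call of the 10 genes. Low counts limit *Cd14* without FK506 (3 to 19 per library).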
